A study of Mus musculus with 4 samples.

Results

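The 9445 narrow H3K4me2 peaks described here are the peaks of the H3K4me2 list on chromosomes 1 to 19 that are at most 1000 bp long. They make up 19.5% of the 48520 peaks of that list on those chromosomes (exact 95% interval 19.1 to 19.8). The members were chosen by their length, so their length, tags, score and fold enrichment are given as a description only. The 31978 H3K4me2 peaks over 1000 and up to 3000 bp long are called mid-width below and the 7097 longer than 3000 bp broad, and a longer peak is any that exceeds 1000 bp.

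The series examined chromatin of neural progenitor-like mouse cells (strain 129/SvJ, passages 15 to 18), which had been derived from embryonic stem cells, by immunoprecipitation and sequencing. There were 4 libraries, 1 in each group, without a control library. The H3K4me2 library was precipitated through histone H3 that carries 2 methyl groups on lysine 4, and its title names N31, Oct4, EGFP and 0 hr. The other 3 used the anti-FLAG antibody M2, which binds a short peptide tag. The titles of 2 of these name Pax6 and Etv6 together with NS, and the title of the third names N31 and EGFP_OK, without saying which protein carried the tag. A difference of the EGFP_OK list from the Pax6 or Etv6 list therefore cannot be told apart from a difference between the cells named N31 and NS. Likewise, every Pax6 and Etv6 share below sets a list titled NS against H3K4me2 peaks titled N31. Whether N31 and NS are different cells is not in the labels. No treatment is given in the labels, nor how the tagged proteins were expressed.

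Dimethylation of H3 lysine 4 is written by methyltransferases of the SET1 and MLL family and is found at promoters and enhancers, whether active or poised. At an active promoter several nucleosomes on both sides of the start site can carry the mark, and a stretch of a few nucleosomes gives a small peak. Pax6 is a DNA-binding protein with a paired domain and a homeodomain that is needed in neural progenitors of the forebrain. Etv6 belongs to the ETS family and is known mainly as a repressor of transcription.

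The libraries kept between 5288154 tags (Pax6) and 24550365 tags (H3K4me2) after duplicates were dropped, and between 16% and 81% of the tags were redundant, with the highest share in the Pax6 library. The lists hold 27730 EGFP_OK, 16233 Pax6 and 30368 Etv6 peaks on chromosomes 1 to 19. A smaller share of H3K4me2 peaks with a Pax6 than with an Etv6 summit is therefore no measure of how often the proteins bind. With 1 library a group there is no replicate error. Intervals on shares are exact (Clopper-Pearson) and those on differences of shares are Newcombe intervals, both at 95%. Both reflect counting error alone, and peaks near each other do not count as independent.

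Narrow peaks held few tags. Their median length was 787 bp, from 193 to 1000 bp. They held a median of 35 tags, with quartiles of 27 and 43 and a range of 17 to 304, against a median of 129 tags in mid-width and 416 in broad peaks. Per 100 bp of peak the medians were 4.40, 7.23 and 10.7 tags in that order. Together the narrow peaks covered 7.29 Mb, which is 7.78% of the length of the H3K4me2 list but 4.23% of the tags in its peaks and 1.44% of the tags kept from the library. The score of a peak, 10 times the −log10 of its p-value in MACS, had a median of 75.8 in narrow peaks and 202 in mid-width ones. Score and fold come from the authors' peak calling throughout. The fold enrichment at the summit did not follow this order. Its median was 6.20 in narrow, 5.94 in mid-width and 4.60 in broad peaks, and it reached 44.9 in narrow peaks. The peak calling had no control and used a regional background range of 10 kb in the same library. The part of this background in the order of fold was not tested. The summit lay in the middle of the narrow peaks, at a median of 50.2% of their length.

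The limit cut through a continuous range of lengths. The 1049 peaks in the last 50 bp up to the limit held a median of 48 tags, and 19.1% of them had an Etv6 summit inside or within 1 kb. The 1097 peaks in the first 50 bp above it held a median of 52 tags, and 22.6% of them had one. The 266 members of up to 500 bp held a median of 20 tags.

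Most narrow peaks stood well away from longer ones. The median distance from end to end to the nearest longer H3K4me2 peak was 16182 bp, with quartiles of 7223 and 41994 bp. The same distance was 7446 bp for mid-width and 6856 bp for broad peaks. Of the narrow peaks, 44.1% lay 10 to 50 kb from a longer peak, and 2016 (21.3%, 20.5 to 22.2) lay 50 kb or more away, against 8.69% of mid-width and 4.03% of broad peaks. At the other end, 687 narrow peaks (7.27%) lay less than 1 kb from a longer peak, 419 of them less than 200 bp. Mid-width peaks had a longer neighbour within 1 kb in 20.4% of cases. Narrow peaks between 1 and 2 kb from a longer one were scarce, at 86 (0.911%). The same distance class held 3.7% of mid-width and 5.59% of broad peaks.

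Narrow peaks close to a longer peak were the larger ones. Those under 1 kb away had a median length of 875 bp and 58 tags, while those 50 kb or more away had 745 bp and 32 tags. The longer neighbour was broad for 1172 narrow peaks (12.4%, 11.8 to 13.1), although 18.2% of all longer peaks are broad. For the 687 within 1 kb it was broad in 18 cases (2.62%, 1.56 to 4.11), and the neighbour's median length was 1429 bp.

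**Figure D1:**
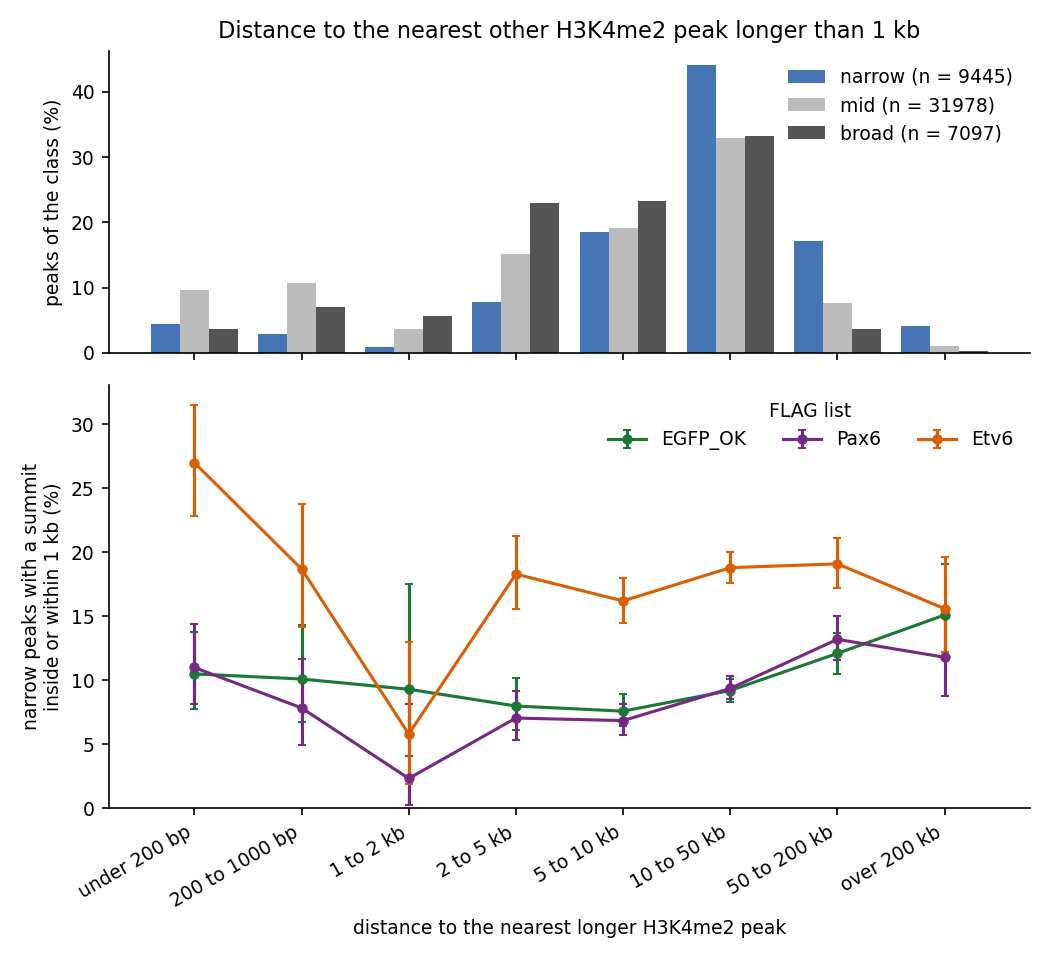
The upper panel gives the share of narrow, mid-width and broad H3K4me2 peaks in each class of distance to the nearest other peak longer than 1 kb, and the lower panel the share of narrow peaks with a summit of each FLAG list inside or within 1 kb, with exact 95% intervals. The narrow peaks sit farther out, with 44.1% at 10 to 50 kb, and the Etv6 share is highest, at 27.0%, in the class under 200 bp.

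Few narrow peaks held a FLAG summit. An EGFP_OK summit lay inside 551 of them (5.83%, 5.37 to 6.33), where 15.5% of all H3K4me2 peaks hold one. A Pax6 summit lay inside 531 (5.62%, 5.17 to 6.11), against 14.7% of all. An Etv6 summit lay inside 1177 (12.5%, 11.8 to 13.1), against 32.3% of all. A summit of any FLAG list lay inside 1725 narrow peaks (18.3%, 17.5 to 19.1), against 40.7% of all, which leaves 7720 with none.

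When summits up to 1 kb outside the peak were counted as well, 909 narrow peaks had an EGFP_OK summit (9.62%, 9.04 to 10.2; 19% of all H3K4me2 peaks), 892 a Pax6 summit (9.44%, 8.86 to 10.1; 17.1% of all) and 1742 an Etv6 summit (18.4%, 17.7 to 19.2; 37.5% of all). At least 1 of the 3 was there for 2528 (26.8%), against 47.4% of all. No FLAG summit lay within 10 kb of 4287 narrow peaks, or 45.4%. This share was not taken for the other H3K4me2 peaks, so it cannot be set against theirs.

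The shares were below those of mid-width peaks for each of the 3 FLAG lists. Narrow minus mid-width, counting summits inside or within 1 kb, the difference was -8.32 percentage points for EGFP_OK (-9.03 to -7.58), from 17.9% in mid-width peaks. For Pax6 it was -6.85 points (-7.55 to -6.12), from 16.3%. For Etv6 it was -18.5 points (-19.4 to -17.5), from 36.9%. Against broad peaks the differences were -26.7, -21.4 and -46.8 points in the same order. The narrow share was below the mid-width share on 19 of 19 chromosomes for each list. Among chromosomes it ranged from 6.02% (chromosome 8) to 13.5% (chromosome 3) for EGFP_OK, from 4.88% (chromosome 19) to 15.2% (chromosome 2) for Pax6 and from 10.5% (chromosome 14) to 24.7% (chromosome 18) for Etv6.

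**Figure D2:**
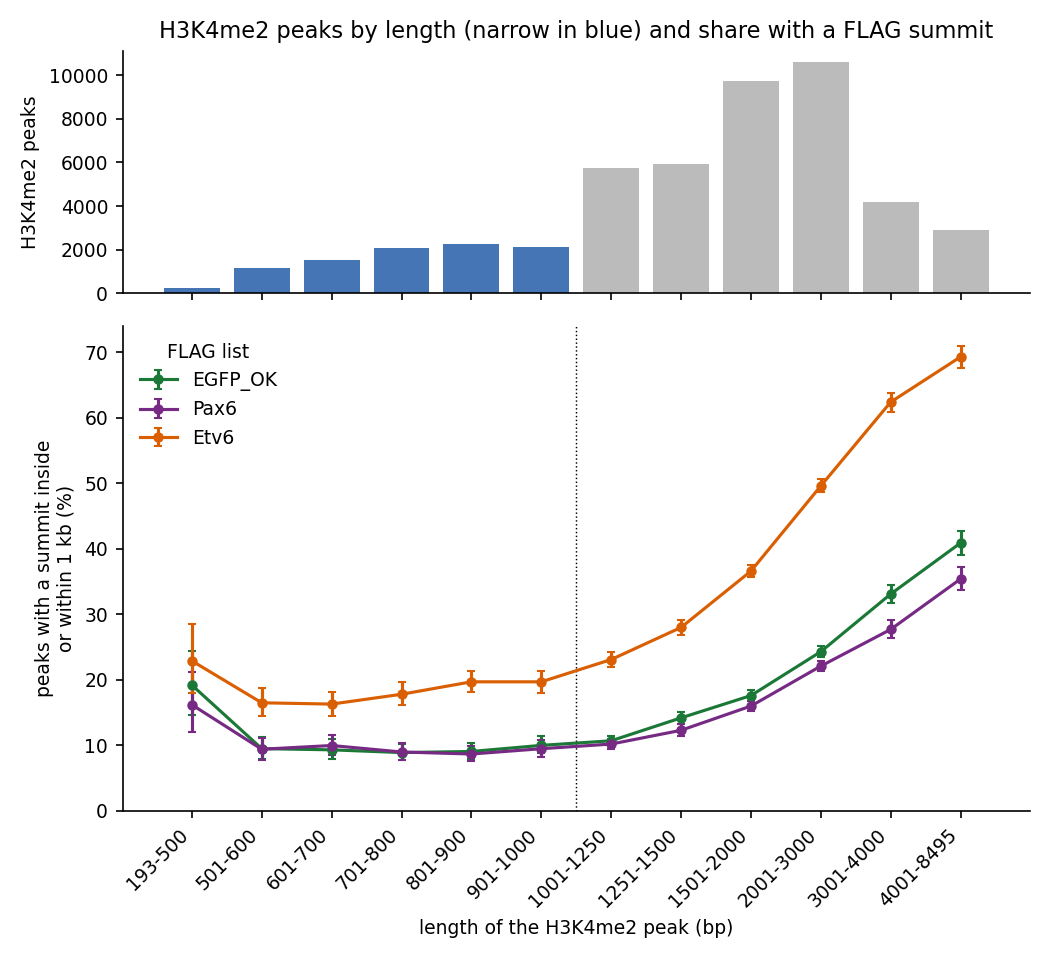
The upper panel counts H3K4me2 peaks by length in bp, narrow ones in blue, and the lower panel gives the share of each length class with a summit of each FLAG list inside or within 1 kb, with exact 95% intervals and a dotted line at the 1000 bp limit. Within the narrow peaks the plotted shares change little above 500 bp, with Etv6 between 16.3% and 19.7%, and they rise with length beyond the limit to 69.3% for Etv6 in the longest class.

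Among the narrow peaks themselves the shares did not simply rise with length. The 266 peaks of up to 500 bp had an EGFP_OK summit inside or within 1 kb in 19.2% of cases (14.6 to 24.4), more than in any of the classes between 500 and 1000 bp, where it was 8.90% to 10.0%. For Pax6 the values were 16.2% (12.0 to 21.2) against 8.68% to 9.98%. Etv6 had 22.9% (18.0 to 28.5) against 16.3% to 19.7%, with overlapping intervals. Counted inside the peak alone, the Etv6 share rose from 8.74% (7.19 to 10.5) at 501 to 600 bp to 14.6% (13.1 to 16.2) at 901 to 1000 bp. Some short peaks have a high fold and all 3 FLAG summits, as described below. Those of fold 20 or more had a median length of 540 bp. The shares of the 266 peaks were not taken without such peaks.

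A longer peak offers more room for a summit, so the shares were also taken in a fixed window of 500 bp on each side of the H3K4me2 summit. An EGFP_OK summit lay in the window of 6.73% of narrow and 10.2% of mid-width peaks (difference -3.46 points, -4.05 to -2.84; 10.2% of all peaks). For Pax6 the shares were 7.20% and 10.6% (-3.37 points, -3.98 to -2.73; 10.4% of all). For Etv6 they were 14.8% and 24.3% (-9.51 points, -10.4 to -8.65; 23.3% of all). The gaps were smaller than with the whole peak, and they kept their direction.

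The fixed window was then compared between narrow and mid-width peaks with like numbers of H3K4me2 tags. At 35 to 49 tags, which holds 3724 narrow and 940 mid-width peaks, the EGFP_OK shares were 6.55% and 7.02% (difference -0.469 points, -2.43 to 1.22) and the Etv6 shares 15.5% and 16.7% (-1.21 points, -3.97 to 1.34). Neither difference exceeded its counting error. The Pax6 shares were 7.22% and 9.89% (-2.67 points, -4.89 to -0.714). At 50 to 74 tags, with 902 narrow and 5494 mid-width peaks, the Etv6 difference was -4.88 points (-7.26 to -2.25), the Pax6 difference -4.04 points (-5.51 to -2.26) and the EGFP_OK difference -0.885 points (-2.49 to 1.04). With tags matched, Pax6 summits were thus scarcer at narrow peaks in both classes, Etv6 summits in the upper class, and EGFP_OK summits in neither beyond counting error. Classes of more tags held few narrow peaks, and these lay close to a longer peak. The median distance to one was 207 bp at 75 to 100 tags and 178 bp at 100 or more, against 9487 and 5700 bp for mid-width peaks. It was 8476 and 12363 bp at 50 to 74 tags, and 14754 and 15840 bp at 35 to 49 tags, narrow before mid-width. At 75 to 100 tags, 187 narrow peaks had EGFP_OK, Pax6 and Etv6 shares of 8.02%, 4.28% and 9.63%, against 8.99%, 10.7% and 23.7%. At 100 or more, 86 narrow peaks had 17.4%, 11.6% and 23.3%, against 11.3%, 11% and 26.1%. Of these 86, 9 held summits of all 3 FLAG lists inside (10.5%), against 3.87% of mid-width peaks. Matched by H3K4me2 score instead, Etv6 was below the mid-width share in all 4 classes from 50 to 200. The differences were -4.44 points at 50 to 75 (-6.37 to -2.56), -6.37 at 75 to 100 (-8.50 to -4.21), -10.5 at 100 to 150 (-12.4 to -8.55) and -10 at 150 to 200 (-13.2 to -6.33). The Pax6 difference lay between -2.38 and -5.94 points, with intervals below 0 in all 4. The EGFP_OK difference was -0.469 points (-1.78 to 0.766) and -1.01 (-2.43 to 0.432) in the lower classes, and -2.27 (-3.55 to -0.868) and -3.07 (-5.26 to -0.228) in the upper ones. At scores of 200 to 300, 258 narrow peaks had EGFP_OK, Pax6 and Etv6 shares of 8.53%, 6.59% and 12%, against 10.4%, 11.1% and 25.3%. At 300 or more the order turned, with 25%, 19.6% and 28.6% in 56 narrow peaks against 12.7%, 9.02% and 25.4%. The interval of that narrow Etv6 share (17.3 to 42.2) includes the mid-width share. Of these 56 narrow peaks, 11 held summits of all 3 FLAG lists inside (19.6%), against 4.09% of mid-width peaks. The shares without such peaks were not taken. Narrow and mid-width peaks of like tag count differ in how closely the tags are packed. Distance to a longer peak was not matched in the classes of tags or score. At scores of 50 to 75 its median was 16726 bp in narrow and 2974 bp in mid-width peaks.

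FLAG summits inside narrow peaks lay near the H3K4me2 summit, as the short peaks require. The median distance between the summits was 143 bp for EGFP_OK, 168 bp for Pax6 and 169 bp for Etv6. Within 100 bp lay 38.5% of the EGFP_OK (34.4 to 42.7), 33.3% of the Pax6 (29.3 to 37.5) and 29.1% of the Etv6 cases (26.6 to 31.8).

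The density of FLAG summits around the H3K4me2 summit does not depend on where the peak ends. It was taken around the 4139 narrow and 7768 mid-width peaks that lie 20 kb or more from a longer peak. Around narrow peaks, Etv6 summits were densest in the first 100 bp, at 188 per kb per 1000 peaks, and fell to 44.0 at 500 to 750 bp and to 8.94 at 1 to 1.5 kb. Around mid-width peaks they stood at 177 in the first 100 bp and were densest 200 to 300 bp away, at 309.6. At narrow peaks the first 200 bp differed little, with 156 and 151 Etv6 summits in the first and second 100 bp. Over all 9445 narrow peaks, at any distance from a longer one, the Etv6 density was 181 in the first and 194 in the second 100 bp. For EGFP_OK the density in the first 100 bp was 145 at narrow and 113 at mid-width peaks, and for Pax6 it was 122 and 74.0. Taken over peaks of H3K4me2 fold under 10 at any distance from a longer one, 8958 narrow and 29823 mid-width, the central densities were close to each other. They were 94.3 and 94.2 for EGFP_OK, 73.1 and 63.5 for Pax6, and 159.6 and 160.3 for Etv6, narrow before mid-width. In these narrow peaks of lower fold only EGFP_OK was densest in the first 100 bp. Etv6 was densest at 100 to 200 bp (196), and Pax6 at 300 to 400 bp (77.6).

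**Figure D3:**
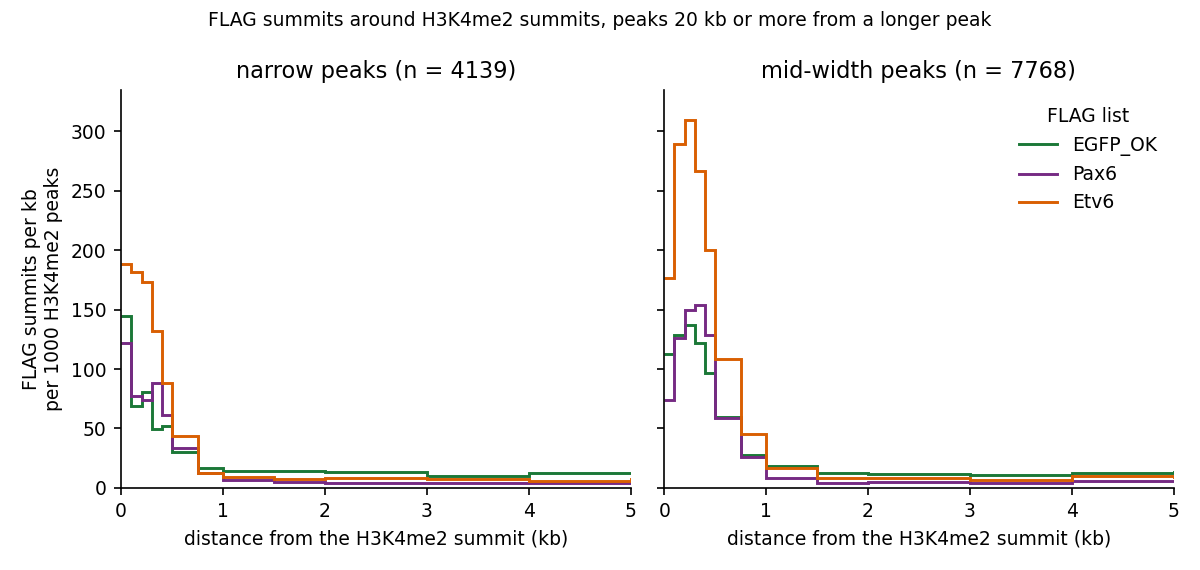
FLAG summits per kb per 1000 H3K4me2 peaks, by distance in kb from the H3K4me2 summit on both sides, for narrow (left) and mid-width peaks (right) that lie 20 kb or more from a longer peak. In the plotted narrow peaks, which include those of high fold, Etv6 stands at 188 and 182 in the first and second 100 bp, and in mid-width peaks it is highest at 200 to 300 bp (309.6).

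Narrow peaks far from longer ones had larger EGFP_OK and Pax6 shares than those close by, while the Etv6 difference did not exceed its counting error. Of narrow peaks 50 kb or more from a longer peak, 12.6% had an EGFP_OK summit inside or within 1 kb, against 8.30% of those under 10 kb away (difference 4.35 points, 2.64 to 6.11), and the isolated peaks were higher on 16 of 19 chromosomes. For Pax6 the shares were 12.9% and 7.38% (5.56 points, 3.88 to 7.32), higher on 16 of 19 chromosomes. For Etv6 they were 18.4% and 18.0% (0.419 points, -1.70 to 2.59), higher on 11 and lower on 8. Among narrow peaks of fold under 10 the differences were 3.37 points for EGFP_OK (1.68 to 5.13), 4.87 for Pax6 (3.17 to 6.64) and -0.0800 for Etv6 (-2.23 to 2.13). The larger EGFP_OK and Pax6 shares were not particular to narrow peaks. In mid-width peaks they were 20.8% against 17.9% for EGFP_OK and 18.7% against 15.1% for Pax6, far before close. In broad peaks they were 43.4% against 33.8% and 35.7% against 29.1%. The Etv6 shares were 32.6% against 37.8% in mid-width and 61.5% against 64% in broad peaks.

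Next to a longer peak, many of the summits counted outside the narrow peak belonged to the neighbour. Among narrow peaks under 1 kb from a longer one, the nearest outside summit lay in a longer H3K4me2 peak in 24 of 33 cases for EGFP_OK, 26 of 41 for Pax6 and 64 of 86 for Etv6. The Etv6 share inside or within 1 kb was 23.7% (20.6 to 27.1) for these peaks, while the share inside was 11.2% (8.95 to 13.8).

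At 10 kb or more from the nearest longer peak, narrow peaks held an Etv6 summit more often where that neighbour held one too. At 50 kb or more from that neighbour, 15.4% of narrow peaks held an Etv6 summit when the neighbour did and 10.2% when it did not (difference 5.20 points, 2.10 to 8.55). At 10 to 50 kb the values were 15.1% and 12.0% (3.10 points, 0.951 to 5.34), and at 1 to 10 kb 13.2% and 11.7% (1.52 points, -1.08 to 4.25). Under 1 kb the order was the opposite, with 3 of 94 narrow peaks (3.19%, 0.663 to 9.04) against 74 of 593 (12.5%, 9.93 to 15.4; -9.29 points, -12.9 to -3.02). For EGFP_OK it was 0 of 45 and for Pax6 0 of 41 narrow peaks whose neighbour held a summit. Each FLAG peak has a single summit, and Etv6 peaks with their summit in a narrow peak had a median length of 990 bp. Whether this bears on the order under 1 kb was not tested. For Pax6 the difference was 3.16 points at 10 to 50 kb (1.18 to 5.50) and 2.12 points at 50 kb or more (-0.837 to 5.95). The local number of FLAG peaks along the chromosome was not held constant here.

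Most narrow peaks that held a FLAG summit held summits of a single list. Etv6 alone lay inside 763, EGFP_OK alone inside 359 and Pax6 alone inside 161. Pax6 with Etv6 lay inside 250, EGFP_OK with Etv6 inside 72 and EGFP_OK with Pax6 inside 28. All 3 lay inside 92 (0.974%, 0.786 to 1.19), against 4.06% of all H3K4me2 peaks. Of narrow peaks with a Pax6 summit, 64.4% also held an Etv6 summit (60.2 to 68.5), compared with 82.0% of mid-width and 91.2% of broad peaks with Pax6. Of those with an EGFP_OK summit, 29.8% held an Etv6 summit (26.0 to 33.8), compared with 51.1% and 76.8%. Pax6 was thus accompanied by Etv6 more often than EGFP_OK was, in narrow peaks as in longer ones.

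Seen from the FLAG lists, narrow H3K4me2 peaks took 551 of 27730 EGFP_OK summits (1.99%), 531 of 16233 Pax6 summits (3.27%) and 1177 of 30368 Etv6 summits (3.88%). These FLAG peaks were not weak ones by fold. The median EGFP_OK fold was 8.00 in narrow peaks, 6.47 in mid-width ones and 7.22 outside all H3K4me2 peaks. The Pax6 medians were 11.6, 10.6 and 10.6, and the Etv6 medians 6.79, 6.37 and 6.24. By tags the Etv6 peaks in narrow H3K4me2 peaks were smaller, with a median of 45 against 55 in mid-width and 77 in broad ones, whereas the EGFP_OK medians were 48, 46 and 58.

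The few narrow peaks of very high fold differed from the rest in what they held. Of 17 narrow peaks with a fold of 20 or more, 13 held a summit of all 3 FLAG lists (76.5%, 50.1 to 93.2). The share was 29 of 470 (6.17%, 4.17 to 8.74) at a fold of 10 to 20, and 0.978%, 0.452% and 0.288% at folds of 7 to 10, 5 to 7 and under 5. For each list taken alone there was no such rise below a fold of 10. From the lowest fold upwards the share with a summit inside was 6.06%, 5.21% and 5.40% for EGFP_OK, 6.11%, 5.38% and 4.51% for Pax6 and 12.7%, 12.2% and 11.8% for Etv6. Inside or within 1 kb, the Pax6 share was 12.2% (10.7 to 13.8), 9.54% (8.73 to 10.4) and 6.59% (5.62 to 7.67), and the Etv6 share 22.5% (20.6 to 24.6), 18.6% (17.5 to 19.7) and 15.1% (13.7 to 16.6), so both were lower at higher fold. The remaining 4 of the 17 held no FLAG summit at all. The rise was not particular to narrow peaks. Of the 5 mid-width peaks with a fold of 20 or more, 3 held all 3 FLAG summits (60%, 14.7 to 94.7), against 1.91% at a fold of 10 to 20.

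In these 13 regions the 4 libraries peaked at nearly the same base. The largest distance of a FLAG summit from the H3K4me2 summit ranged from 1 to 20 bp, with a median of 5 bp. Among all 92 narrow peaks with 3 FLAG summits the distances shrank with the H3K4me2 fold. The median EGFP_OK, Pax6 and Etv6 distances were 124, 156 and 162 bp in the 50 with a fold under 10, 10, 13 and 7 bp in the 29 with a fold of 10 to 20, and 2, 2 and 4 bp in the 13 of higher fold. The 13 were also far from longer peaks, at a median of 167192 bp, against 28226 bp for the 50.

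In the 13 regions the tag counts of the H3K4me2 and FLAG peaks were alike across libraries of different depth. Here and below, FLAG tags are those of the FLAG peak with its summit in the region. They were counted over that FLAG peak's own interval, not over the H3K4me2 peak. The H3K4me2 peaks held 47 to 304 tags, and the FLAG peaks 66 to 340 (EGFP_OK), 56 to 320 (Pax6) and 59 to 343 (Etv6). The ratio of Pax6 to Etv6 tags had a median of 0.865 (0.492 to 1.02), although the Pax6 library kept 0.220 times as many tags as the Etv6 library. In the other 329 narrow peaks with both summits that ratio had a median of 0.323, with quartiles of 0.250 and 0.440. Without H3K4me2 peaks of fold 20 or more, 5.71% of narrow peaks held an EGFP_OK, 5.49% a Pax6 and 12.3% an Etv6 summit inside. Repeats, copy number and a control library were not examined, and their part in these regions was not tested.

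**Figure D4:**
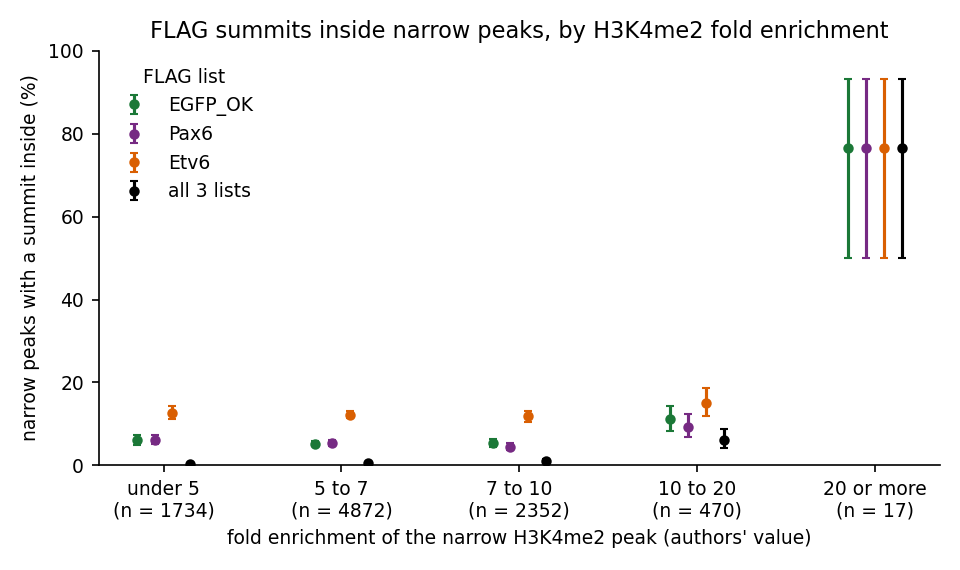
Share of narrow H3K4me2 peaks with a summit of each FLAG list, and of all 3, inside, by class of the H3K4me2 fold enrichment given by the authors, with exact 95% intervals. All 3 lists together reach 76.5% in the 17 peaks of fold 20 or more and stay at 6.17% or below in the other classes.

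The highest-scoring narrow peaks belonged to this kind, and 8 of the 10 highest held all 3 FLAG summits. Coordinates are those of build mm9. Of these, 3 overlap a peak among the 20 highest of every FLAG list. The region at chromosome 12, 3109772 to 3110283, held 303 H3K4me2, 340 EGFP_OK, 320 Pax6 and 343 Etv6 tags, with FLAG summits 10 to 15 bp from the H3K4me2 summit. The region at chromosome 6, 103598947 to 103599538, held 304, 339, 241 and 328 tags in that order, and the region at chromosome 14, 86598697 to 86599234, held 156, 179, 175 and 171. In all 3 the counts of the 4 libraries are close to one another.

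Outside these, the highest score belonged to chromosome 10, 71759830 to 71760185, a peak of 356 bp and 44.9-fold enrichment that lies 186470 bp from a longer peak. There the peaks had 106 H3K4me2, 116 EGFP_OK, 106 Pax6 and 114 Etv6 tags. The next, at chromosome 9, 24346143 to 24346961, had 107, 129, 59 and 120 tags, and the next after it, at chromosome 2, 57481545 to 57482229, had 95, 249, 195 and 205. At the chromosome 2 region the FLAG peaks had more tags than the H3K4me2 peak, and the 4 summits lay within 1 bp. Among peaks 50 kb or more from a longer one, the third by score was at chromosome 13, 77577849 to 77578688, with 100, 141, 118 and 148 tags.

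Narrow peaks with Pax6 and Etv6 but not EGFP_OK looked different. The highest-scoring one, at chromosome 4, 95537382 to 95538374, held 57 H3K4me2 tags (10.9-fold). The Pax6 peak there had 17 tags and the Etv6 peak 36, with the Pax6 summit 114 bp and the Etv6 summit 420 bp from that of H3K4me2. At chromosome 8, 23543182 to 23544121, there were 54 H3K4me2, 10 Pax6 and 24 Etv6 tags. At chromosome 11, 62780165 to 62781136, there were 54, 28 and 93. In each the Pax6 peak had fewer tags than the Etv6 peak, and the FLAG summits lay 50 to 420 bp from the H3K4me2 summit. The Pax6 library kept 0.220 times as many tags as the Etv6 library. Such distances also occur with all 3 FLAG summits, where the 50 peaks of fold under 10 had medians of 124, 156 and 162 bp.

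Among narrow peaks with a single FLAG list, the highest by score with EGFP_OK was at chromosome 12, 57737718 to 57738562, with 69 H3K4me2 and 28 EGFP_OK tags. The following ones lay at chromosome 9, 92102052 to 92102995 (83 and 29 tags), and chromosome 1, 99698753 to 99699591 (60 and 71 tags). The summits of this class were 200 to 300 bp apart. The highest with Etv6 was at chromosome 8, 13868816 to 13869723, with 104 H3K4me2 and 60 Etv6 tags. It ends 87 bp from a longer peak of 1243 bp. The one at chromosome 4, 133951247 to 133952127 (117 and 55 tags), lies 34 bp from a longer peak and has an EGFP_OK summit 29 bp outside. The one at chromosome 2, 148577558 to 148578394 (71 and 40 tags), lies 18542 bp away from the nearest longer peak.

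For Pax6 alone, the highest was at chromosome 2, 105843444 to 105844441, with 95 H3K4me2 and 15 Pax6 tags. It is 8 bp from a longer peak, and an Etv6 summit lies 31 bp outside it. The next were at chromosome 3, 55177426 to 55178321 (63 and 11 tags), and chromosome 15, 42793984 to 42794982 (63 and 17 tags). The chromosome 15 peak has an EGFP_OK summit 177 bp and an Etv6 summit 419 bp outside, so "alone" applies to the inside of the peak.

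Some strong narrow peaks stood apart from every FLAG summit. At chromosome 19, 41090422 to 41091236, the peak held 91 tags at 23.3-fold enrichment, and the nearest FLAG summit, of EGFP_OK, was 54966 bp away. At chromosome 16, 33306557 to 33307536, there were 88 tags (20.4-fold), and at chromosome 4, 129865775 to 129866736, there were 83 (16.2-fold). The narrow peak farthest from any longer one, at chromosome 2, 96404846 to 96405325, held 21 tags and lay 2096969 bp from a longer peak.

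Narrow peaks followed each other along the chromosomes more often than longer ones were flanked by them. Both next H3K4me2 peaks were narrow for 871 narrow peaks (9.22%, 8.65 to 9.82), against 3.77% of mid-width and 2.28% of broad peaks. Runs of 5 or more narrow peaks with no longer one between them numbered 56. The longest run held 25, at chromosome 6, 114447282 to 114587085, over 139.8 kb. Its peaks were 402 to 899 bp long with 21 to 47 tags, and 1 Etv6 summit and no summit of the other FLAG lists lay in the whole run. It overlaps the 100-kb window with the most narrow peaks, chromosome 6, 114500001 to 114600000, where 17 of 18 H3K4me2 peaks were narrow and 2 Etv6 summits lay. The next run, of 15 peaks over 627 kb at chromosome 2, 175867569 to 176494374, spanned 7 Pax6 summits and none of EGFP_OK or Etv6. A run of 9 at chromosome 8, 4678189 to 6411288, spanned summits of all 3 lists, 13 of EGFP_OK, 4 of Pax6 and 5 of Etv6. A run of 8 at chromosome 15, 18911128 to 20297286, spanned 20 EGFP_OK summits and none of Pax6 or Etv6. Chromosomes 1 to 19 hold 27730 EGFP_OK, 16233 Pax6 and 30368 Etv6 summits in all. The number to be found by chance in spans of these lengths was not computed, so the counts do not show that FLAG summits are scarce or frequent in runs. By chromosome, narrow peaks made up between 14.6% (chromosome 11) and 23.3% (chromosome 18) of H3K4me2 peaks.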

How the data were processed

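Per the file headers, MACS 1.4.2 called peaks on each library alone, without a control, with a p cutoff of 1e-05, and kept at most 1 tag per position, so a peak reflects enrichment over the background of its own library. The submitters' processing notes also name BWA 0.6.2, CASAVA 1.8.1 and build mm9. The deposited lists give the count of tags in each peak, not normalized. They also give a score, 10 times the −log10 of the p-value, and a fold enrichment, a ratio that the authors' peak calling took against the same library, since the file headers name no control.

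From these lists, lengths, gaps between peak ends and summit positions (start plus offset, minus 1) were computed for chromosomes 1 to 19 with pandas 2.3.3, numpy 2.4.6 and scipy 1.17.1 under Python 3.11.15. Summit distances were checked with summits planted in the real narrow peaks, and the Newcombe intervals with simulated shares. The gaps between peaks were not checked in this way. Groups come from the titles, and with 1 library each no test between conditions was possible. Length classes and lists were chosen with earlier results of these data known. Named regions are the 3 highest by score in each class of FLAG summits, of distance and of all narrow peaks, leaving out and giving apart those that overlap a top 20 peak of every FLAG list, plus the farthest peak and the densest 100-kb window. The regions of other runs were named after their values were seen. Other limits, scores, windows and distances were tried as alternatives. Gene names are not used here, since no mm9 annotation was at hand, and so the cells' identity was not checked against marker genes.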

Additional observations from a re-analysis of the deposited data

Results flagged for a closer look

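Both entries are narrow H3K4me2 peaks outside chromosomes 1 to 19, which entered none of the comparisons. Chromosome X held 347 narrow peaks among its 937 H3K4me2 peaks. Chromosome Y and unplaced sequences held 46 among 111, with a median of 30 tags and a highest fold of 55.1. No control library was there to set these against.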

How the results depend on the processing

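Of 209 values recomputed under 14 alternatives, 106 stayed within the range set around the reported value, 103 moved beyond it and 0 reversed. The range was the value's 95% interval, and 1.5 times either way for the count of narrow peaks. All 60 differences of narrow from mid-width or broad peaks stayed below 0 with their intervals. The 2 alternatives that leave out peaks, those of fold 20 or more and those under 1 kb from a longer peak, were chosen after seeing the data. No paired analysis was possible because each group has 1 library. Values below run in the order EGFP_OK, Pax6, Etv6, in percent or points, for summits inside or within 1 kb unless named, and the cause of a shift was not tested.

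With H3K4me2 peaks of score 100 or more the values were 6.58 and 13.3 for narrow peaks with a summit inside (EGFP_OK and Etv6), 7.57 and 16.7 for narrow peaks (Pax6 and Etv6), 18.7 and 38 for mid-width peaks (EGFP_OK and Etv6). They were -9.26, -8.73 and -21.3 for narrow minus mid-width, -23 and -49.4 for narrow minus broad (Pax6 and Etv6). With FLAG peaks of score 100 or more the values were 3.04, 1.73 and 5.2 for narrow peaks with a summit inside, 4.92, 2.96 and 8.34 for narrow peaks, 7.31, 4.16 and 17.9 for mid-width peaks. They were 15, 8.92 and 37.8 for broad peaks, -2.38, -1.2 and -9.58 for narrow minus mid-width, -10.1, -5.95 and -29.4 for narrow minus broad. With the 16233 highest-scoring peaks of each FLAG list the values were 3.7 and 6.31 for narrow peaks with a summit inside (EGFP_OK and Etv6), 6.06 and 9.99 for narrow peaks (EGFP_OK and Etv6), 9.95 and 20.9 for mid-width peaks (EGFP_OK and Etv6). They were 20.3 and 42.6 for broad peaks (EGFP_OK and Etv6), -3.89 and -10.9 for narrow minus mid-width (EGFP_OK and Etv6), -14.2 and -32.6 for narrow minus broad (EGFP_OK and Etv6). With summits up to 500 bp outside the values were 8.34, 8.77 and 17.2 for narrow peaks. With summits up to 2 kb outside the values were 12.1, 10.4 and 20 for narrow peaks. With any overlap of at least 1 bp with a FLAG peak the values were 8.66, 8.75 and 17.4 for narrow peaks. In the window of 500 bp around the H3K4me2 summit the values were 6.73, 7.2 and 14.8 for narrow peaks, 10.2, 10.6 and 24.3 for mid-width peaks, 14.7, 14.2 and 29.9 for broad peaks. They were -3.46, -3.37 and -9.51 for narrow minus mid-width, -7.99, -7.03 and -15.1 for narrow minus broad. With a length limit of 800 bp the values were 10.8 for narrow peaks with a summit inside (Etv6), 17.3 for narrow peaks (Etv6), 16.9, 15.4 and 34.8 for mid-width peaks. They were -7.21, -5.65 and -17.5 for narrow minus mid-width. With a length limit of 1200 bp the values were 14.1 for narrow peaks with a summit inside (Etv6), 19.7 for narrow peaks (Etv6), 19.2, 17.3 and 39.3 for mid-width peaks. They were -9.4, -7.72 and -19.6 for narrow minus mid-width. The median distance to a longer peak was then 16928 bp. With H3K4me2 peaks under 1 kb apart joined the values were 17.1, 16.9 and 35.8 for mid-width peaks, 34.4, 27.5 and 61.6 for broad peaks, -7.56 and -7.9 for narrow minus mid-width (EGFP_OK and Pax6). They were -24.9, -18.5 and -43.9 for narrow minus broad. The median distance to a longer peak was then 17684 bp. Between summits, the median distance to a longer peak was 17634 bp. Without narrow peaks under 1 kb from a longer peak, the median distance to a longer peak was 18206 bp.

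The Pax6 library kept the fewest tags, and its peaks held a median of 19. How depth affects the shares was not tested.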
